A study of Mus musculus with 12 samples.

Results

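*Gria3*, *Rcan2* and *Rab30* are the subject here, 3 of the 3799 genes in a table of mouse liver expression. They were chosen by their own values: for each gene, all 3 libraries of mice given doxorubicin (DOX) lay apart from all 3 libraries of Saline mice, so every comparison that holds Saline or DOX libraries is given for them as a description, without a test. Among 3317 genes whose mean reached 1 FPKM, 1170 (35.3%) had DOX and Saline libraries that did not overlap, and nothing is read from the 3 genes being among them. The distance between the nearest DOX and Saline libraries, on the log2(FPKM + 1) scale, was 1.38 for *Gria3*, 1.10 for *Rab30* and 1.02 for *Rcan2*. These distances ranked first, seventh and eighth among the 1170 genes.

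The study asked whether K35 and its analog K27, compounds picked for dispersing aggregates of a glycolytic enzyme, act against signs of aging in mice. The livers came from male C57BL/6J mice aged 8 weeks, with 3 libraries in each of 4 groups. DOX mice received doxorubicin, a chemotherapy drug that intercalates into DNA and blocks topoisomerase, by intraperitoneal injection at 10 mg/kg on day 0 and on day 7, and then vehicle into the stomach. DOX + K35 and DOX + K27 mice received the same injections and, from day 2, 50 mg/kg of K35 or of K27 into the stomach every other day, while Saline mice, labelled vehicle in the sample titles, received saline injections without doxorubicin. All livers were taken on day 20, so the compounds were given at a matched dose and time, and no group had a compound without doxorubicin.

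Expression was given as FPKM, a fragment count scaled for transcript length and library size, in a table of genes that the authors had selected. The table's name marks them as differentially expressed genes, a choice that can have used these same libraries. Shares and medians of all genes are therefore those of this selection, not of all liver genes. The depth of the libraries is unknown, and values after ± are SDs over the 3 libraries of a group. Libraries of a group had Pearson correlations of log2(FPKM + 1) between 0.923 and 0.991 across genes. The sample labels and the table carry different codes for some DOX and DOX + K35 livers, so libraries B3 and B4 of DOX and library C4 of DOX + K35 are named by code and the others by replicate number. The 13 mitochondrially encoded genes took between 48.2% and 61.9% of the summed FPKM in Saline, 62.2% to 83.3% in DOX, 37.9% to 48.7% in DOX + K35 and 50.01% to 68.0% in DOX + K27. The median log2 difference of all 3317 genes was −0.34 for DOX vs. Saline, 0.46 and 0.36 for K35 and K27 mice against DOX, and 0.09 for K35 against K27 mice. After leaving out the 20 highest genes it was 0.06, −0.08, 0.02 and −0.09. Values rescaled in this way are given beside the results they move.

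The 3 genes have different roles. *Gria3* encodes a subunit of the AMPA-type glutamate receptor, a ligand-gated ion channel that carries fast excitatory signals between neurons. *Rcan2* encodes a regulator of calcineurin: calcineurin is a phosphatase switched on by calcium and calmodulin that removes phosphates from NFAT transcription factors so that they enter the nucleus, and RCAN proteins bind it and can hold it back. *Rab30* encodes a small GTPase of the Rab family, proteins that cycle between a GTP-bound and a GDP-bound form and direct vesicles to their target membrane, and its protein sits at the Golgi apparatus.

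*Gria3* (ENSMUSG00000001986) lies on the plus strand of chromosome X from 41400854 to 41678601 in GRCm38, with 9 annotated transcripts, 4 of them protein coding. It was near the bottom of the scale in Saline livers, at 0.162, 0.0962 and 0.118 FPKM in replicates 1, 2 and 3. DOX livers had 2.02 FPKM in replicate 1, 2.18 in library B3 and 2.05 in library B4. The DOX values were far above the Saline values and close to each other, with group means of 2.09 ± 0.0824 and 0.125 ± 0.0334 FPKM (SD, n = 3), a ratio of 16.6. DOX + K35 livers had 0.804 and 0.738 FPKM in replicates 1 and 2 and 0.637 in library C4, between Saline and DOX and apart from both. DOX + K27 livers had 1.92, 1.01 and 1.76 FPKM in replicates 1, 2 and 3. Replicates 1 and 3 lay just under DOX and replicate 2 nearer to DOX + K35.

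The order of the *Gria3* means was Saline, DOX + K35 (0.726 ± 0.0845 FPKM), DOX + K27 (1.56 ± 0.491 FPKM) and DOX, and no pair of groups overlapped. The last step was the narrowest. The highest DOX + K27 library was 0.1003 FPKM below the lowest DOX library, less than the SD within DOX + K27. On the log2(FPKM + 1) scale *Gria3* differed by 1.46 (standard error 0.16) between DOX and Saline, by −0.84 between DOX + K35 and DOX and by −0.29 between DOX + K27 and DOX, with the same standard error. Relative to the median of all genes these differences were 1.79, −1.30 and −0.64. When the 20 highest genes were left out and the libraries rescaled, the ratio of DOX to Saline means was 25.8 and that of DOX + K35 to DOX 0.204 rather than 0.348. With the mitochondrially encoded genes left out the ratio of DOX to Saline was 20.1. *Gria3* passed the filter at a mean of 1.13 FPKM over 12 libraries only because of the DOX and DOX + K27 groups. A gene for a small RNA, Gm22413, lies inside *Gria3* on the same strand and overlaps its exons, so reads of both could be counted together.

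*Rcan2* (ENSMUSG00000039601) lies on the plus strand of chromosome 17 from 43801351 to 44039516 in GRCm38, with 7 annotated transcripts, all protein coding. RefSeq gives it several start sites, and the table sums the transcripts of all of them. A pair of its 3 promoter windows is shown here, since several starts feed the same FPKM value. The window labelled upstream start is the middle one of the 3. Each spans 300 bases around a start on GRCm38.p6, plus strand, and capitals mark the letters of a CCAAT box read on the other strand.
Rcan2 upstream start, chr17:43801601-43801900: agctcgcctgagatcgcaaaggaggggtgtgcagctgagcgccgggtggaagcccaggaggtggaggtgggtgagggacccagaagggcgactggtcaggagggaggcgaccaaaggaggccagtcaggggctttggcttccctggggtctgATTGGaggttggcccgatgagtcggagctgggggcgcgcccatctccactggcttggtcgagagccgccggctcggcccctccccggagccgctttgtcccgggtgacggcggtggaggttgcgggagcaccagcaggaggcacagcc
Rcan2 internal start, chr17:43952749-43953048: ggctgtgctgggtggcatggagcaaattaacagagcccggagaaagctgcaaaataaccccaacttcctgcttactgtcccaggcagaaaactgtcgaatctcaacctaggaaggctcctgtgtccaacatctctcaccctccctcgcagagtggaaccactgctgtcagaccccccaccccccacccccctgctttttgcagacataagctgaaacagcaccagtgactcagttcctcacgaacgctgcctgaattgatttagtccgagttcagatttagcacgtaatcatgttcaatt
The window labelled upstream start is 69% G or C with 20 CpG dinucleotides and holds the CCAAT letters once, from base 153. The window further upstream, chr17:43801102-43801401, is not shown. It is 54% G or C with 5 CpG dinucleotides and holds none of the motifs searched. The internal window is 51.7% G or C with 7 CpG dinucleotides, and the median of all 32851 windows of this length is 52.7% and 7. Of 6 motifs searched on both strands, the CCAAT box (CCAAT) was in 1 of the 3 *Rcan2* windows and in 37.4% of all windows. The TATA box (TATAAA, in 13.6% of all windows), the GC box (GGGCGG, 35.7%), the E-box (CACGTG, 7.15%), the nuclear receptor element (AGGTCA, 16.3%) and the cyclic AMP response element (TGACGTCA, 1.79%) were not found in these 3 windows.

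*Rcan2* was at 3.19, 3.10 and 3.50 FPKM in Saline replicates 1, 2 and 3. DOX livers had 1.02 FPKM in replicate 1, 0.769 in library B3 and 0.587 in library B4, all below the Saline range. The DOX mean of 0.792 ± 0.217 FPKM was 4.12 times below the Saline mean of 3.26 ± 0.208 (SD, n = 3). DOX + K35 livers had 2.89 and 3.39 FPKM in replicates 1 and 2 and 2.86 in library C4. All were above DOX, and their range overlapped that of Saline. DOX + K27 livers had 1.66, 1.64 and 1.20 FPKM in replicates 1, 2 and 3, above every DOX library and below every library of DOX + K35 and of Saline.

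The order of the *Rcan2* means was thus DOX, DOX + K27 (1.499 ± 0.256 FPKM), DOX + K35 (3.05 ± 0.3001 FPKM) and Saline, and the last pair did not differ beyond its spread. On the log2(FPKM + 1) scale *Rcan2* differed by −1.26 (standard error 0.17) between DOX and Saline. Against DOX the differences were 1.18 for DOX + K35 and 0.48 for DOX + K27. Against Saline they were −0.08 and −0.77, with the same standard error. Relative to the median of all genes the differences from DOX were 0.72 and 0.13. Leaving out the 20 highest genes, the ratio of DOX + K35 to DOX means was 2.38 rather than 3.85, and that of DOX + K27 to DOX was 1.37 rather than 1.89. The groups that did not overlap before also did not overlap then. A small RNA gene, Gm24532, lies in an intron of *Rcan2* on the other strand, and the library kit does not mark strand.

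*Rab30* (ENSMUSG00000030643) lies on the plus strand of chromosome 7 from 92741603 to 92844535 in GRCm38, with 5 annotated transcripts, 4 of them protein coding. Saline livers had 5.61, 4.97 and 4.41 FPKM in replicates 1, 2 and 3. DOX livers had 1.52 FPKM in replicate 1, 0.961 in library B3 and 1.24 in library B4, all below Saline. The DOX mean of 1.24 ± 0.2801 FPKM was 4.03 times below the Saline mean of 4.996 ± 0.597 (SD, n = 3). DOX + K35 livers had 1.94 and 3.44 FPKM in replicates 1 and 2 and 1.81 in library C4. They were above DOX and below Saline, with replicate 2 well above the others. DOX + K27 livers had 2.22, 5.84 and 3.33 FPKM in replicates 1, 2 and 3. They were above DOX, and replicate 2 held the highest *Rab30* value of all 12 libraries.

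The order of the *Rab30* means was DOX, DOX + K35 (2.40 ± 0.906 FPKM), DOX + K27 (3.80 ± 1.86 FPKM) and Saline. DOX + K35 overlapped DOX + K27, and DOX + K27 overlapped Saline, so neither pair of neighbours differed beyond its spread. On the log2(FPKM + 1) scale *Rab30* differed by −1.42 (standard error 0.26) between DOX and Saline, and DOX + K35 and DOX + K27 stood 0.58 and 1.04 above DOX, with the same standard error. Relative to the median of all genes the last values were 0.12 and 0.68. Leaving out the 20 highest genes, the ratio of DOX + K35 to DOX means was 1.14 rather than 1.93, that of DOX + K27 to DOX 2.14 rather than 3.06, and that of DOX to Saline 0.381 rather than 0.248. Both compound groups then overlapped DOX, as they also did after median-ratio scaling, and DOX + K35 did after quantile normalization. A gene of unknown coding status, Gm45200, lies in an intron of *Rab30* on the same strand.

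**Figure D1:**
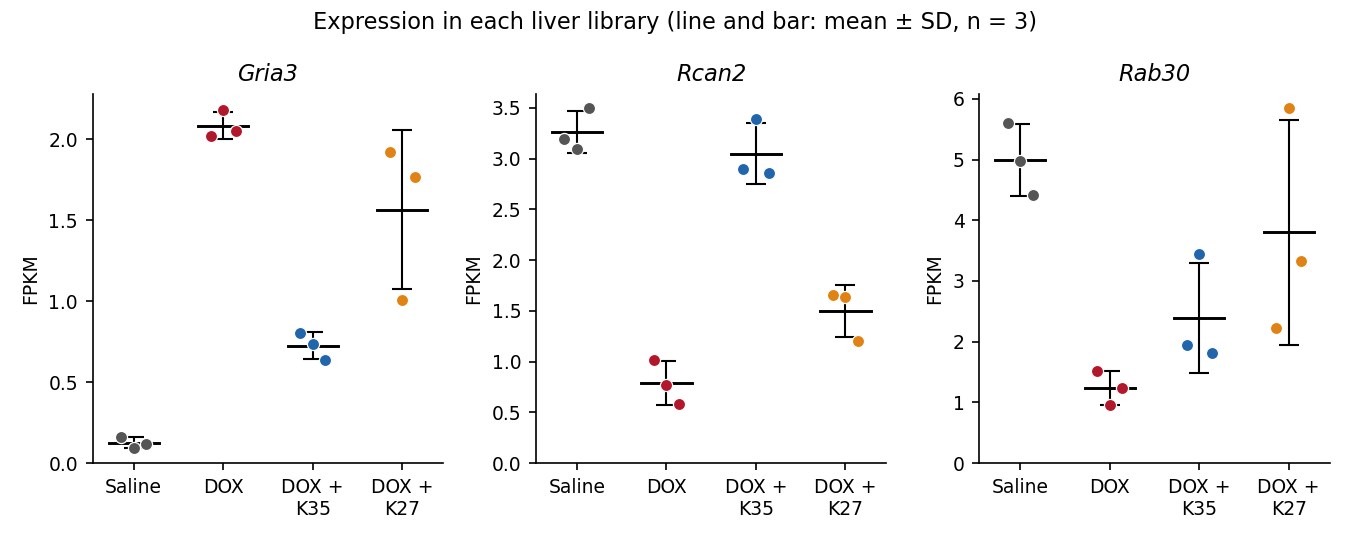
FPKM of *Gria3*, *Rcan2* and *Rab30* in each liver library, with 1 point a library, 3 points a group, and the group mean ± SD as a line and bar. *Gria3* is at 0.125 FPKM in Saline and 2.09 in DOX with DOX + K35 between, *Rcan2* in DOX + K35 lies at the Saline level, and *Rab30* spreads from 2.22 to 5.84 FPKM in DOX + K27.

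How far each compound group had returned was expressed as a share, the distance of its mean from the DOX mean divided by the distance of the Saline mean from the DOX mean, in log2(FPKM + 1). A share of 0% is the DOX level and 100% is the Saline level. The shares of both compounds use the same DOX and Saline libraries, which also chose the genes, so they describe positions and carry no test. *Gria3* was returned by 57.6% ± 4.88 in DOX + K35 and by 19.6% ± 20.2 in the K27 mice (SD over libraries, n = 3). Without DOX + K27 replicate 2 the latter was 8.10%, and that library alone stood at 42.7% while replicates 1 and 3 stood at 5.35% and 10.9%. *Rcan2* was returned by 94.0% ± 8.35 in DOX + K35, where the libraries ran from 88.6% to 103.6%, and by 38.4% ± 12.1 in DOX + K27, where they ran from 24.4% to 45.9% (SD, n = 3).

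*Rab30* stood the other way round, at 72.8% ± 38.5 in DOX + K27 and 40.5% ± 25.6 in DOX + K35 (SD, n = 3). In DOX + K35 replicate 2 stood at 69.9%, replicate 1 at 28.1% and library C4 at 23.5%, and without replicate 2 the share was 25.8%. In DOX + K27 replicates 1, 2 and 3 stood at 37.3%, 113.8% and 67.4%. The share of *Rab30* in DOX + K35 was 11.6% without the 20 highest genes. Within DOX + K27, replicate 2 was the library with the largest return of both *Gria3* and *Rab30* and replicate 1 the one with the smallest, while *Rcan2* was returned least in replicate 3. On the FPKM scale without logarithms the shares were 69.3% and 26.6% for *Gria3*, 91.3% and 28.6% for *Rcan2* and 30.8% and 68.1% for *Rab30* in DOX + K35 and DOX + K27, so the order of the compounds was the same for each gene.

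The 1170 genes whose DOX and Saline libraries lay apart give the setting for these shares. Their median share was 116.1% in DOX + K35, with quartiles of 83.0% and 144.0%, and 71.5% in DOX + K27, with quartiles of 42.0% and 85.2%. These quartiles were not computed after rescaling, and the *Gria3* share in DOX + K35 was 70.8% without the 20 highest genes. On the main scale *Gria3* was below the lower quartile with both compounds. *Rcan2* was within the quartiles in DOX + K35 and below them in DOX + K27, and *Rab30* was below them in DOX + K35 and near the median in DOX + K27. The share was larger in DOX + K35 than in DOX + K27 for 981 of the 1170 genes (83.8%). *Gria3* and *Rcan2* had that order and *Rab30* the opposite one.

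**Figure D2:**
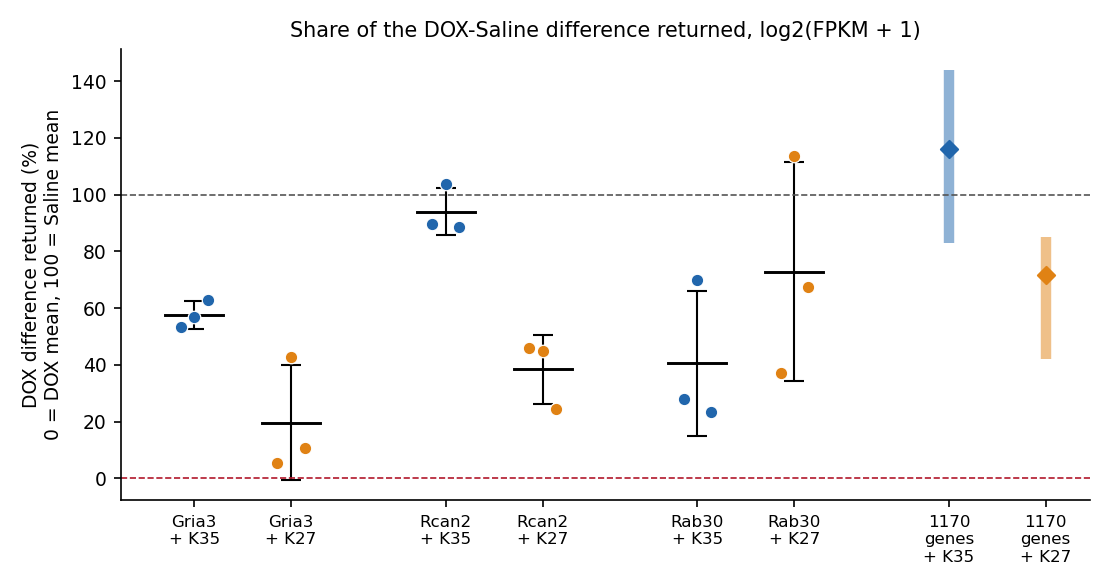
Share of the DOX difference returned, in percent on the log2(FPKM + 1) scale, with 1 point a library and the mean ± SD (n = 3) as a line and bar. On the right, diamonds and thick bars give the median and quartiles over the 1170 genes whose DOX and Saline libraries lay apart. The dashed lines mark the DOX mean at 0 and the Saline mean at 100, and only *Rcan2* in DOX + K35 among the 3 genes has its mean near 100, at 94.0%.

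The difference between the K35 and the K27 mice holds neither DOX nor Saline values, and it is the comparison that was tested. Its standard error and p-value come from a spread pooled over all 4 groups, so the Saline and DOX libraries that chose the genes enter them. It is 1 pair of compounds, with p-values adjusted over the 3317 tested genes of the authors' selection. Of these, 0.422% were called higher and 1.69% lower in DOX + K35. *Rcan2* was higher in DOX + K35 by 0.70 in log2(FPKM + 1) (95% interval 0.34 to 1.06, adjusted p = 0.0472 in limma, by the Benjamini-Hochberg method), a ratio of means of 2.03. In a fit of the K35 and K27 libraries alone, which is free of the choosing libraries, the difference was the same and *Rcan2* was not called (adjusted p = 0.0607 in limma). The call of the pooled fit was also lost without Saline replicate 1 or 2, library B3, DOX + K35 replicate 1 or 2 or any DOX + K27 replicate, at an adjusted p between 0.0694 and 0.185 in limma. Over 20 alternative fits the adjusted p ran from 0.0186 to 0.185 and passed in 10, while the difference stayed positive in all of them. *Gria3* was lower in DOX + K35 by 0.55 (95% interval −0.90 to −0.21, adjusted p = 0.0798 in limma), which missed the threshold, with an adjusted p from 0.0514 to 0.302 over the alternatives. It passed the filter on mean FPKM only through DOX and DOX + K27, so its test is not independent of the filter. With no filter on low values the adjusted p was 0.0599 in limma.

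*Rab30* was lower in DOX + K35 than in DOX + K27 by 0.46, and its 95% interval of −1.02 to 0.11 held 0 as well as the −0.55 of *Gria3* (adjusted p = 0.227 in limma). Without DOX + K27 replicate 2 the difference was −0.17, and without DOX + K27 replicate 1 it was −0.71. The libraries of DOX + K35 and DOX + K27 lay apart for *Gria3* and *Rcan2* and overlapped for *Rab30*, where 49.5% of all genes tested lay apart. The gap between the nearest libraries was 0.201 FPKM for *Gria3* and 1.20 FPKM for *Rcan2*. After quantile normalization the *Gria3* libraries of these groups overlapped.

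For the comparisons with DOX and Saline the same background was as follows. Libraries lay apart for 59.7% of genes in DOX + K35 vs. DOX, 18.6% in DOX + K27 vs. DOX, 32.3% in DOX + K35 vs. Saline and 13.9% in DOX + K27 vs. Saline. All 3 genes lay apart from DOX in both compound groups. *Gria3* and *Rab30* lay apart from Saline in DOX + K35, and *Gria3* and *Rcan2* did so in DOX + K27. Nothing is read from these counts, since the DOX and Saline libraries chose the genes.

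The pathway of each gene was followed through lists of related genes, of which the table holds only a part. Over all lists, those of cell type markers included, 75 genes were tested. In DOX vs. Saline none was called (0 of 75 in limma), beside 0.0301% of all genes called higher and 0.151% called lower. With an unadjusted p-value under 0.05 in limma, 45 of the 75 passed, 3 higher and 42 lower in DOX. Of all 3317 genes, 241 were higher and 1331 lower by that measure. Without DOX replicate 1 the number of list genes called was 46, and without Saline replicate 3 it was 31. In DOX + K35 vs. DOX 44 were called higher and 9 lower, beside 46% and 10.7% of all genes. In DOX + K27 vs. DOX none was called (0 of 75 in limma), beside 0.0603% of all genes called higher and 0% called lower. With an unadjusted p-value under 0.05 in limma, 18 of the 75 were higher and 0 lower. Of all 3317 genes, 930 were higher and 43 lower by that measure. Without DOX replicate 1 the number of list genes called was 22. Shares of all genes called in fits without a single library are not given here, so nothing about the lists is read from those counts. In DOX + K35 vs. DOX + K27, 1 was called, lower in DOX + K35. The calls in this last comparison ranged from 0 to 4 when single libraries were left out (4 without library B4, 3 without library C4, and 0 without DOX + K35 replicate 1 or 2 or any of the 3 DOX + K27 replicates). With the replicate number as a block, which drops libraries B3, B4 and C4, the calls were 34 in DOX + K35 vs. DOX + K27, beside 25.1% of all genes called higher and 18.5% called lower in that fit. In DOX vs. Saline they were 10, beside 2.62% and 7.33%. The blocked fit keeps 1 DOX library, which is assumed to vary like the other groups, and in DOX + K35 vs. DOX it called 35.4% of all genes higher and 18.1% lower.

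Of 17 other ionotropic glutamate receptor subunits the table holds 1, *Grik5*, a subunit of the kainate-type receptor. Its mean was 4.40 ± 2.05 FPKM (Saline), 7.22 ± 1.33 (DOX), 4.93 ± 4.54 (DOX + K35) and 8.32 ± 4.37 (DOX + K27). In DOX + K35 vs. DOX + K27 it differed by −0.81 in log2(FPKM + 1), with a 95% interval of −1.76 to 0.14 (adjusted p = 0.215 in limma). Under the replicate block it was called lower in DOX + K35 than in DOX + K27 and in DOX, and higher in DOX than in Saline. Of 25 AMPA receptor partners 3 were present and 2 tested. The one with the highest mean, *Abhd6*, a lipase that hydrolyses monoacylglycerol and also binds AMPA receptors, averaged 19.7 ± 5.90 FPKM (Saline), 8.77 ± 2.47 (DOX), 17.3 ± 7.11 (DOX + K35) and 14.98 ± 1.87 (DOX + K27). The other was *Nsf*, an ATPase that takes SNARE complexes apart. Both were called higher in DOX + K35 than in DOX, as 46% of all genes were. Neither was called once the 20 highest genes were left out, and neither in the other comparisons. In the blocked fit 1 of them was called higher in DOX + K35 than in DOX + K27.

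Of 19 genes of calcineurin and its regulators 5 were tested. Beside 46% of all genes, 3 of the 5 were called higher in DOX + K35 than in DOX. These were *Chp1*, a calcium-binding calcineurin homologue, *Ppp3r1*, the regulatory subunit of calcineurin itself, and *Calm2*, which encodes calmodulin. *Chp1*, the highest of the list, averaged 76.8 ± 6.78 FPKM (Saline), 43.3 ± 14.6 (DOX), 114.0 ± 8.53 (DOX + K35) and 73.0 ± 14.8 (DOX + K27). Without the 20 highest genes 3 of the 5 were called higher and 2 lower in DOX + K35 than in DOX, beside 27.9% and 42.8% of all genes. None of the 5 was called in DOX + K35 vs. DOX + K27, where the median of the list was 0.51 beside 0.09 for all genes. With the replicate block 2 of the 5 were called higher. Of 14 transcription factors regulated by calcineurin, *Foxo1* and *Crtc1* were tested. *Foxo1* was called higher in DOX + K35 (4.81 ± 0.730 FPKM) than in DOX (1.59 ± 0.0605 FPKM). It was at 2.70 ± 0.363 FPKM in DOX + K27, and the difference of 0.65 in log2(FPKM + 1) between the compounds missed the threshold (adjusted p = 0.0657 in limma). In the blocked fit 1 of this pair was called higher in DOX + K35 than in DOX + K27.

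The table holds 13 genes besides *Rab30* whose symbol starts with Rab and a digit, 11 of them Rab GTPases and the others, *Rab11fip3* and *Rab5if*, partners of Rab proteins. In DOX vs. Saline 11 of the 13 were below 0 and none was called, with a median of −0.79 beside −0.34 for all genes. In DOX + K35 vs. DOX 10 of the 13 were called higher and none lower, beside 46% and 10.7% of all genes. Their median was 1.05, beside 0.58 for *Rab30* and 0.46 for all genes. Without the 20 highest genes 6 were called higher and 2 lower, beside 27.9% and 42.8% of all genes. In DOX + K27 vs. DOX none was called, and the median was 0.67, beside 1.04 for *Rab30* and 0.36 for all genes. *Rab7*, the highest of them and a GTPase of late endosomes, averaged 63.2 ± 8.37 FPKM (Saline), 36.3 ± 16.6 (DOX), 81.8 ± 3.22 (DOX + K35) and 57.0 ± 9.44 (DOX + K27). In DOX + K35 vs. DOX + K27, 11 of the 13 were above 0 and none was called, while *Rab13* and *Rab24* were below 0, as *Rab30* was. With the replicate block, where 25.1% of all genes were called higher, 5 of the 13 were called higher in DOX + K35 than in DOX + K27, and 2 were called lower in DOX than in Saline.

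The 6 tested genes of Rab handling load, unload, switch off or bind Rab GTPases, and include *Rab11fip3*, already counted above. Between the compounds 1 of the 6 was called. *Tbc1d10a*, a GTPase-activating protein, averaged 9.17 ± 0.673 FPKM (Saline), 10.4 ± 1.005 (DOX), 4.75 ± 0.483 (DOX + K35) and 11.1 ± 2.10 (DOX + K27). Its difference between the K35 and the K27 mice was −1.07 in log2(FPKM + 1) (95% interval −1.53 to −0.60, adjusted p = 0.0271 in limma), and the call was lost without DOX + K35 replicate 1 or 2 or any DOX + K27 replicate. The highest of the 6, *Gdi2*, which keeps Rab proteins soluble in their GDP form, had a mean of 45.3 FPKM over the 12 libraries and was not called between the compounds (adjusted p = 0.277 in limma). In the blocked fit 2 of the 6 were called higher and 1 lower in DOX + K35 than in DOX + K27. Of 16 Golgi tethers and coat proteins tested, 13 were called higher and 1 lower in DOX + K35 than in DOX, beside 46% and 10.7% of all genes. Without the 20 highest genes the counts were 10 and 2, beside 27.9% and 42.8%. *Arf1*, the highest of them and the GTPase that recruits COPI coats, averaged 82.3 ± 18.4 FPKM (Saline), 38.98 ± 19.98 (DOX), 117.1 ± 7.05 (DOX + K35) and 66.4 ± 20.5 (DOX + K27). None of the 16 was called in DOX + K35 vs. DOX + K27, where their median was 0.70, and 12 were called higher and 2 lower with the replicate block, beside 25.1% and 18.5% of all genes.

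**Figure D3:**
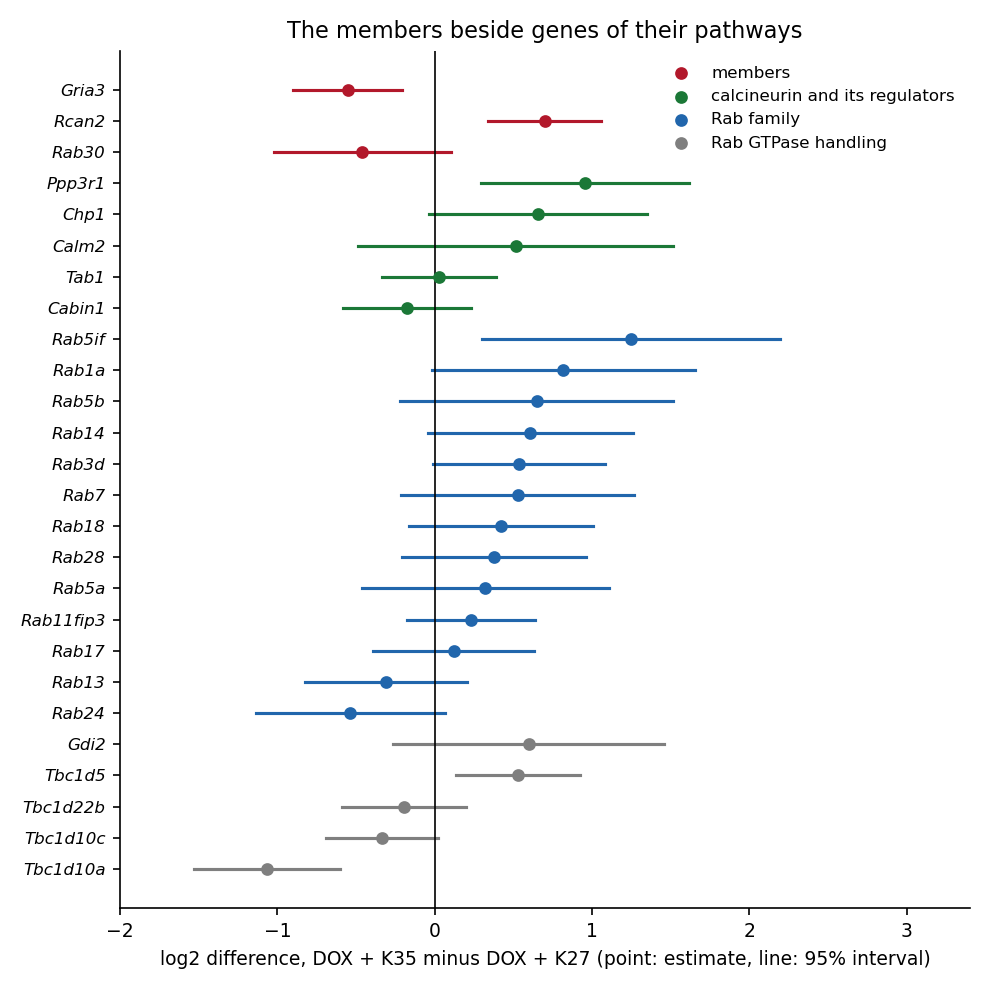
Difference between DOX + K35 and DOX + K27 in log2(FPKM + 1), with the limma estimate as a point and its 95% interval as a line, for the 3 genes and for tested genes of calcineurin and its regulators, of the Rab family and of Rab handling. *Rcan2* lies to the right of 0 at 0.70, *Gria3* and *Rab30* lie to the left at −0.55 and −0.46, and 11 of the 13 other Rab genes lie to the right.

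The genes most like each of the 3 were named by the Pearson correlation of log2(FPKM + 1) over the 12 libraries, as a description. The libraries fall into the 4 groups and share their scaling, so a gene that separates the groups in the same way ranks high. For *Gria3* they were *Polk* (r = 0.865), a DNA polymerase for translesion synthesis, *Ccdc66* (0.846), a protein of cilia, *Myl9* (0.841), a myosin light chain of smooth muscle, *Zbtb11* (0.841), a zinc finger protein, and *Mdm2* (0.841), the ubiquitin ligase of p53. *Polk* averaged 1.07 ± 0.313 FPKM (Saline), 2.42 ± 0.519 (DOX), 1.54 ± 0.236 (DOX + K35) and 1.78 ± 0.127 (DOX + K27). *Mdm2* averaged 5.80 ± 0.9001, 10.7 ± 0.7105, 7.54 ± 1.84 and 11.2 ± 1.25 FPKM in the same order, so its DOX + K27 mean was at the DOX level. Without the 20 highest genes these 5 correlations lay between 0.910 and 0.942.

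For *Rcan2* they were *H6pd* (0.915), which makes NADPH in the endoplasmic reticulum, *Galnt10* (0.915), which starts O-linked glycans, *Tat* (0.915), the tyrosine aminotransferase of hepatocytes, *Tbc1d5* (0.913), a GTPase-activating protein for Rab proteins, and *Atp1b3* (0.911), a subunit of the sodium pump. *Tat* averaged 691.2 ± 51.6 FPKM (Saline), 376.9 ± 62.04 (DOX), 722.7 ± 54.2 (DOX + K35) and 422.8 ± 108.3 (DOX + K27), so its DOX + K35 mean was near Saline, as that of *Rcan2* was, and its DOX + K27 mean was closer to DOX than that of *Rcan2*. Without the 20 highest genes its correlation with *Rcan2* was 0.641 and the other 4 lay between 0.811 and 0.850. For *Rab30* they were *Gpat3* (0.942), an acyltransferase of triglyceride synthesis, *Slc22a5* (0.898), the carnitine transporter, *P2ry1* (0.876), a receptor for ADP, *Acot2* (0.874), a mitochondrial acyl-CoA thioesterase, and *Plin2* (0.871), a coat protein of lipid droplets. *Plin2* averaged 171.95 ± 40.1 FPKM (Saline), 43.6 ± 30.7 (DOX), 85.3 ± 39.7 (DOX + K35) and 151.3 ± 91.1 (DOX + K27), the order of the *Rab30* means. *Acot2* has near-identical neighbours among which reads could be split. Without the 20 highest genes these 5 correlations lay between 0.660 and 0.901.

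**Figure D4:**
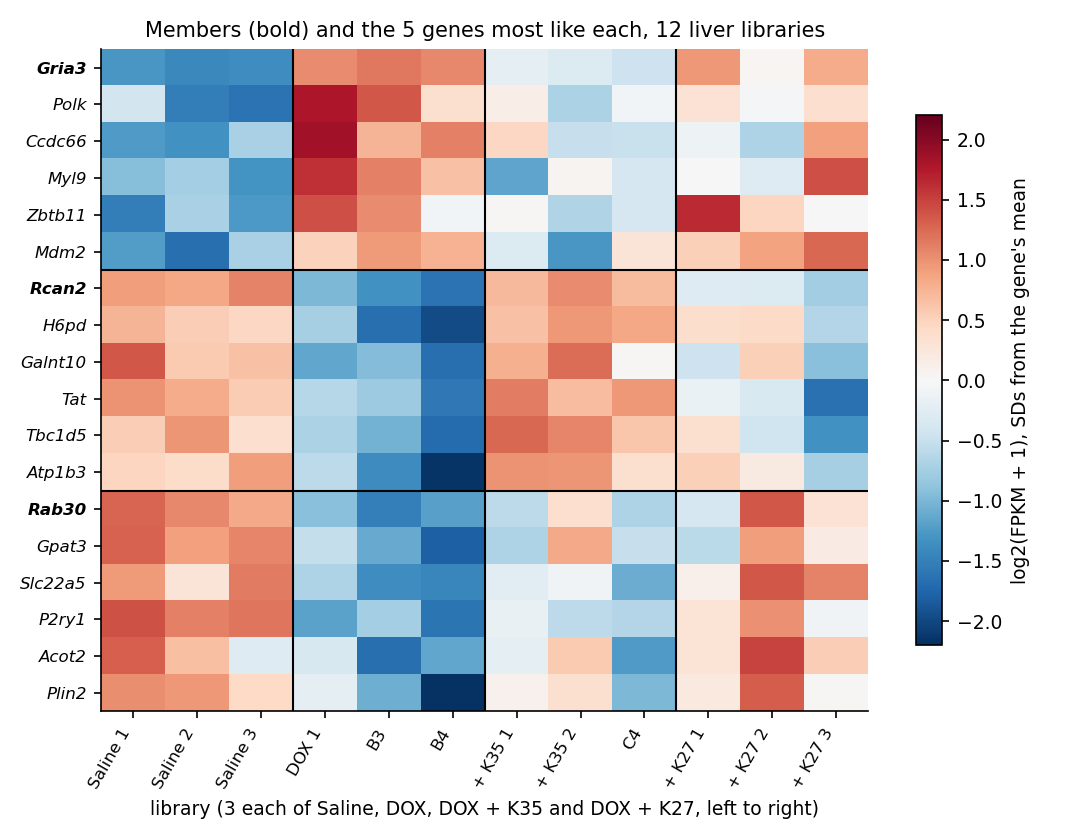
Level of the 3 genes (bold) and of the 5 genes most like each in the 12 libraries, as log2(FPKM + 1) in standard deviations from the gene's own mean, with red above and blue below it. The block of *Gria3* is blue in Saline and mostly red in DOX, that of *Rcan2* is mostly red in Saline and DOX + K35, and that of *Rab30* is darkest red within DOX + K27 in replicate 2.

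Whole liver was sequenced, and in bulk tissue fewer cells of a type and less RNA per cell cannot be told apart. The ranges of several cell type markers differed between the groups, and differences between summed markers were not tested. In the main fit no marker gene was called in DOX vs. Saline or in DOX + K27 vs. DOX. In DOX + K35 vs. DOX 5 of 8 Kupffer cell and 2 of 3 endothelial markers were called higher, beside 46% of all genes. All 4 erythroid, 1 of 4 stellate and the lymphocyte marker were called lower, beside 10.7%. Without the 20 highest genes no Kupffer cell or endothelial marker was called higher. The 4 erythroid markers were still called lower then, beside 42.8% of all genes. The table holds 8 of 17 hepatocyte markers, none at 0 in all libraries, and their summed FPKM ran from 12113 to 20762 in DOX and from 16279 to 22283 over the other groups. The apolipoprotein genes *Apoa1* and *Apoa2*, with DOX means of 7424 and 6622 FPKM, made up most of that sum. In DOX vs. Saline 7 of the 8 were below 0, with a median of −0.94 and none called in limma. In DOX + K35 vs. DOX 6 were called higher, beside 46% of all genes. It holds 8 of 12 Kupffer cell markers, whose sum was 80.05 to 216.8 FPKM in Saline, 20.1 to 56.6 in DOX, 57.9 to 91.2 in DOX + K35 and 58.9 to 105.9 in DOX + K27, so like *Rcan2* and *Rab30* it was lowest in DOX. The 4 of 8 erythroid markers in the table, all globins, summed to 329.8 to 505.6 FPKM in Saline, 820.6 to 1135 in DOX, 62.2 to 595.9 in DOX + K35 and 452.1 to 1072 in DOX + K27. The 4 of 14 stellate cell and fibroblast markers summed to 6.68 to 9.24, 10.4 to 17.9, 6.29 to 13.5 and 11.4 to 18.6 FPKM. Like *Gria3*, the erythroid and the stellate sums were higher in every DOX library than in every Saline library. DOX and Saline libraries lay apart, in either direction, for 35.3% of all genes tested. The 3 of 13 endothelial markers summed to 5.87 to 7.02, 4.92 to 10.5, 7.08 to 15.01 and 8.18 to 10.6 FPKM in the same order of groups. The table holds 1 each of 17 lymphocyte and 11 neutrophil markers. The lymphocyte marker *Cd79b* ran from 1.57 to 3.06, 1.58 to 2.81, 0.252 to 1.33 and 2.01 to 3.95 FPKM, and the neutrophil marker *Csf3r* from 1.57 to 3.18, 2.06 to 3.46, 1.26 to 2.64 and 2.003 to 3.70 FPKM. *Syt1*, a synaptic vesicle protein and the neuron marker that was tested, averaged 2.40 ± 0.412 FPKM (Saline), 1.03 ± 0.7996 (DOX), 2.08 ± 1.24 (DOX + K35) and 2.0998 ± 0.624 (DOX + K27). Its DOX mean was below its Saline mean, whereas that of *Gria3* was above, and it was not called in any of the 4 comparisons. The part of these cell types in the values of the 3 genes was not tested.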

How the data were processed

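The authors deposited 1 table of expression values for genes they had selected. Its header names no unit. The values fit FPKM and were taken as such, scaled by the authors for transcript length and library size. Per the labels, mRNA was selected with poly-T beads and libraries were made with a kit that does not mark strand. The submitters' processing notes name HISAT2, DESeq2, edgeR and GRCm38, without settings. The table holds no counts. Of 54 genes under 0.6 FPKM throughout, at most 13.0% of the ratios between any 2 libraries lay within 1% of a common value, so whole reads could not be recovered and the counting error is unknown. No value column was left unused (0).

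The scale was log2(FPKM + 1), which understates changes of low genes. limma 3.58.1 (R 4.3.3) was fitted to the 3317 genes whose mean reached 1 FPKM, with 4 group means over 12 libraries, lmFit, and a trended eBayes. P-values were adjusted over all genes in each comparison by the Benjamini-Hochberg method, with a threshold of 0.05. The fit was tested on simulated data for DOX + K35 vs. DOX + K27. It recovered 28% of simulated differences of 1 in log2(FPKM + 1) and 92% of differences of 2. The differences of the 3 genes were below 1, so a missed threshold does not show that the compounds acted alike on them. Python 3.11.15, numpy 2.4.6, pandas 2.3.3 and matplotlib 3.10.9 made the other values. All 3519 Ensembl identifiers occurred in GENCODE M21 on GRCm38. Promoter windows are from RefSeq on GRCm38.p6, which had windows for *Rcan2*.

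The 3 genes and the gene lists were chosen with earlier results of these data known. Genes named from a list are the one with the highest mean and those past the threshold in DOX vs. Saline or DOX + K35 vs. DOX + K27. Other named list genes were chosen after their values were seen. Sums over 2 marker lists are not reported here. Nothing in the labels says that a replicate number marks a shared mouse, batch or day. Deviations from the group means of Saline and DOX + K27 libraries with 1 number correlated at 0.258, 0.176 and 0.474, each over 0.1. The replicate number was therefore used as a block in 1 alternative fit, and the main fit did not pair libraries. Some unmatched libraries correlated as strongly (Saline replicate 1 with DOX + K27 replicate 2 at 0.380, Saline replicate 2 with DOX + K27 replicate 1 at 0.302). The highest correlation, 0.559, joined unmatched libraries, DOX replicate 1 and DOX + K27 replicate 2. The pairing is therefore not established by these correlations. Between DOX + K35 and DOX + K27 only 2 numbers are shared, at 0.286 and 0.338. No source used here says that each library is a separate mouse, so p-values measure the spread between libraries, which may be technical. Other settings tried were quantile normalization, median-ratio scaling, rescaling without the 20 highest genes, 0.1 as pseudocount, all genes unfiltered, the replicate number as a block, the 2 compared groups alone, and each library omitted in turn. Shares on the FPKM scale and fits without mitochondrially encoded genes were chosen after seeing the data.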

Additional observations from a re-analysis of the deposited data

Results flagged for a closer look

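*Rcan2* was flagged because the 2 compounds changed it by different amounts from DOX, by the test of that difference with the spread pooled over all 4 groups. It was 0.70 higher in log2(FPKM + 1) in DOX + K35 than in DOX + K27 (95% interval 0.34 to 1.06, adjusted p = 0.0472, limma with Benjamini-Hochberg adjustment, 0.0186 to 0.185 over the alternatives), and all 3 DOX + K35 libraries were above all 3 DOX + K27 libraries. Libraries of these groups lay apart, in either direction, for 49.5% of all genes tested. The *Rcan2* difference was above that of 87.7% of all genes tested. The pooled spread includes the Saline and DOX libraries that chose the gene. In a fit of the 2 compound groups alone *Rcan2* was not called (adjusted p = 0.0607 in limma). With 3 libraries a group, no single library could be checked as an outlier.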

How the results depend on the processing

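The difference between DOX + K35 and DOX + K27 kept its sign for all 3 genes in all 20 alternative fits. *Rcan2* lost the threshold with a pseudocount of 0.1 (0.99, adjusted p = 0.0770, limma) and in a fit of only the 2 groups (0.70, adjusted p = 0.0607, limma). Leaving out single libraries, its difference ran from 0.61 to 0.75, passing in 4 of 12 fits. It was lost without Saline replicate 1 or 2, library B3, DOX + K35 replicate 1 or 2, or any DOX + K27 replicate. *Gria3* (−0.72 to −0.45) and *Rab30* (−0.71 to −0.17) did not pass in any of these fits. With the replicate block the differences were −0.49, 0.71 and −0.39 for *Gria3*, *Rcan2* and *Rab30*, and no call on them changed.

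The share of *Gria3* returned in DOX + K35 was 42.8% with a pseudocount of 0.1, 70.8% without the 20 highest genes, 65.0% after median-ratio scaling, 63.9% without mitochondrially encoded genes and 69.3% on the FPKM scale. Without the 20 highest genes the shares in DOX + K35 were 81.5% for *Rcan2* and 11.6% for *Rab30*. Without single libraries the shares ran from 55.0% to 59.9% and 8.10% to 26.8% (*Gria3*), 89.2% to 97.0% and 33.9% to 45.4% (*Rcan2*) and 25.8% to 49.0% and 52.4% to 90.6% (*Rab30*) in DOX + K35 and DOX + K27.

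Calls among the list genes in DOX vs. Saline were 22 without the 20 highest genes, 31 after median-ratio scaling, 13 after quantile normalization and 10 with the replicate block (0 to 46 without single libraries). In DOX + K27 vs. DOX they ran from 0 to 22, and in DOX + K35 vs. DOX from 40 to 53, without single libraries. In DOX + K35 vs. DOX + K27 they were 4, 3 and 0 after median-ratio scaling, after quantile normalization and in a fit of only the 2 groups, 34 with the replicate block and 0 to 4 without single libraries. Apart from the replicate block, shares of all genes called in these fits are not set beside the counts here. Nothing about the lists is therefore read from the counts. The causes were not tested. Depth is unknown, so counting error could not be set beside the low *Gria3* values in Saline.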
